A study of Mus musculus with 5 samples.

Results

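Semaphorins, plexins and neuropilins are a ligand and receptor system of 31 genes, taken by symbol: 20 semaphorins, 9 plexins and 2 neuropilins. Every one was found among the 34615 gene symbols measured, and all 31 were among the 16286 symbols whose mean reached 1 FPKM, which were tested. FPKM counts sequenced fragments relative to exon length and library size, so levels may be compared between genes. The study asked what prolonged high blood glucose does to the vessels of the mouse brain, and RNA was sequenced from microvascular fragments of 3 wildtype (WT) and 2 heterozygous *Ins2*-AKITA mice. All mice were C57BL6 males of 26 to 38 weeks, the WT mice were littermates of the mutants, and each mouse gave 1 library. In *Ins2*-AKITA mice 1 copy of the insulin 2 gene is mutated, which kills the beta cells of the pancreas and raises blood glucose. The vessels therefore meet high glucose from outside, as part of the diabetes of the whole animal. The fragments were pulled from digested brain with magnetic beads against PECAM1, an endothelial surface protein, and hold endothelium with its attached pericytes and astrocyte end-feet. In such bulk samples, fewer cells of a type and less RNA per cell cannot be told apart.

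Semaphorins are secreted or membrane-bound guidance cues, first known for steering axons and later for shaping vessels and immune cells. Plexins are their signalling receptors and act on small GTPases and the cytoskeleton. Secreted class 3 semaphorins mostly need a neuropilin as the ligand-binding partner of a plexin, and neuropilins also serve as co-receptors for vascular endothelial growth factors (VEGFs).

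The number of sequenced fragments, estimated from the steps between low FPKM values, was 2850790 in WT replicate 3 and between 1127453 and 1320206 in the other 4 mice. WT replicate 3 therefore carries less counting error than the others. Correlations between libraries over the tested genes lay between 0.809 and 0.872. The share of all FPKM that fell on protein-coding genes was 3.09% to 11.0% among WT libraries and 9.76% to 27.5% among mutant libraries. The summed FPKM of protein-coding genes itself was 388375 to 402063 in WT libraries, and 392325 and 421375 in mutant libraries. The share therefore differed mainly through the other genes. As FPKM is relative to exon length, it is not a share of fragments. The part of these differences between libraries in the results on the family was not tested.

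In WT mice the median family member had a mean level of 13.7 FPKM, against 10.3 FPKM over all tested genes, and 19 of the 31 members reached 10 FPKM. The spread between WT mice was close to that of other genes, with a median coefficient of variation of 23.1% for the members and 26.9% for all tested genes. *Sema7a*, a membrane-anchored semaphorin, had the highest mean WT level of the family at 45.4 FPKM, followed by *Sema4a* at 38.1 FPKM. The WT ranges of these 2 genes overlapped. *Plxnd1* (34.7 FPKM), *Plxnb1* (33.6 FPKM), *Plxna2* (29.3 FPKM) and *Plxnb2* (27.3 FPKM) led the plexins. The WT range of each overlapped that of the next in this order, while those of *Plxnd1* and *Plxnb2* did not overlap. *Sema3d* was the lowest member at a mean of 1.20 FPKM. The plot of FPKM by mouse shows that levels within the family spanned more than a 10-fold range, wider than the difference between genotypes for any member.

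**Figure D1:**
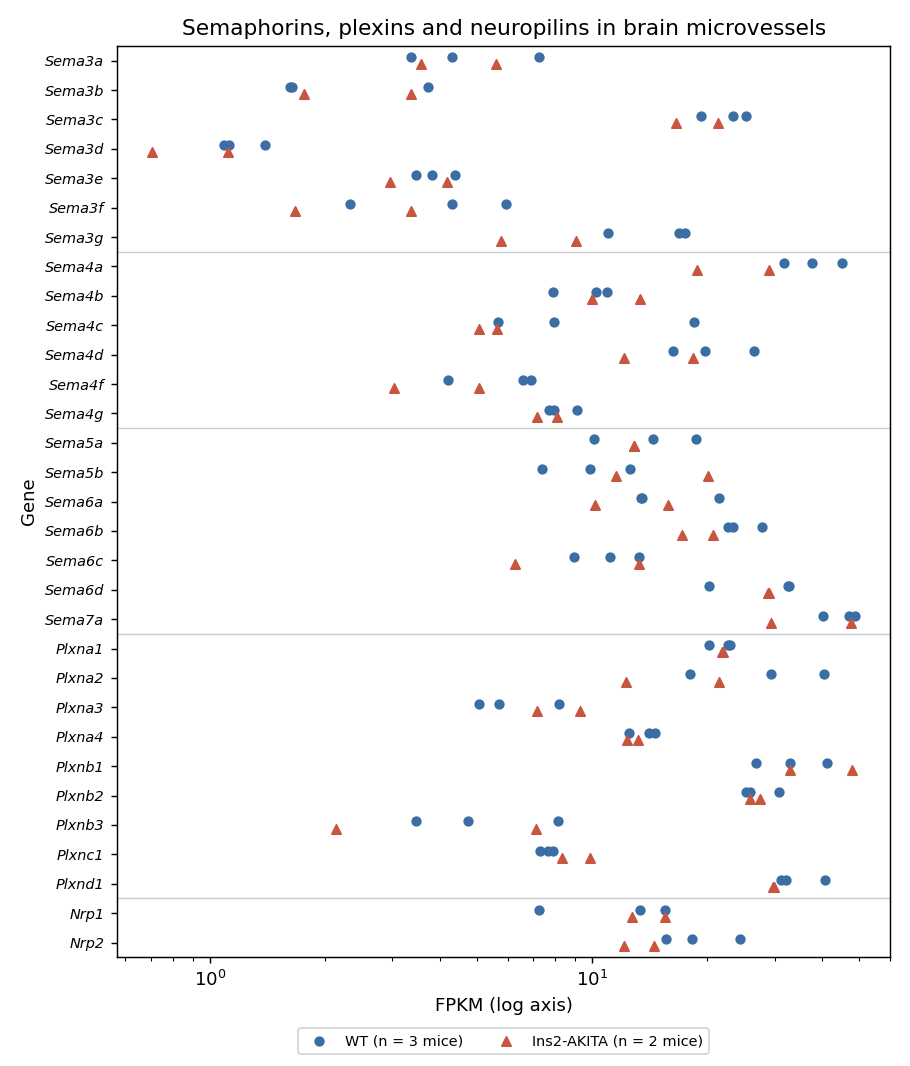
FPKM on a log axis (horizontal) of the 31 family members (vertical, grouped as class 3, class 4 and class 5 to 7 semaphorins, plexins and neuropilins), with 1 circle per WT mouse (n = 3) and 1 triangle per *Ins2*-AKITA mouse (n = 2). The groups overlap for 24 members; both triangles lie left of all circles for 6 members and right of them for *Plxnc1*.

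No member of the family passed the adjusted p threshold of 0.05 between genotypes. The smallest adjusted p of a member was 0.896 (limma, Benjamini-Hochberg over 16286 genes). In the same fit 0% of all tested genes were called higher in *Ins2*-AKITA mice and 0.0246%, or 4 genes, lower. At an unadjusted p under 0.05, 2 members were lower, *Sema3g* and *Sema4a*, and 0 were higher, where 2.93% of all genes were lower and 1.53% higher. Log2 fold changes, *Ins2*-AKITA minus WT on the log2(FPKM + 1) scale, were negative for 23 of 31 members against 53.5% of all genes. After scaling to endothelial markers, which shifts all genes, they were negative for 7 of 31 members against 21.1% of all genes. The median over the members was -0.20 and that over all genes -0.03. Standard errors ran from 0.19 to 0.53, so that most single differences were within the spread between mice. Signs and medians by class are given on the unscaled values.

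Both *Ins2*-AKITA values lay below all WT values for 6 members, *Sema3g*, *Sema4a*, *Sema4c*, *Sema6b*, *Plxnd1* and *Nrp2*, which is 19.4% of the family against 10.3% of all tested genes. *Plxnc1* was the only member with both values above all WT values, 3.23% against 9.24%. A single mouse held many of the lowest values. *Ins2*-AKITA replicate 2 had the lowest of the 5 values for 16 of 31 members, 51.6% against 23.1% of all genes. Without that mouse the median over the members was -0.045, against -0.0067 over all genes. Then 18 of 31 members had a negative fold change, against 50.7% of all genes. Without WT replicate 1, 1 member was lower at an unadjusted p under 0.05 in limma, where 342 of 16064 genes were. Without WT replicate 2 it was 0 members, where 316 of 16158 genes were lower.

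**Figure D2:**
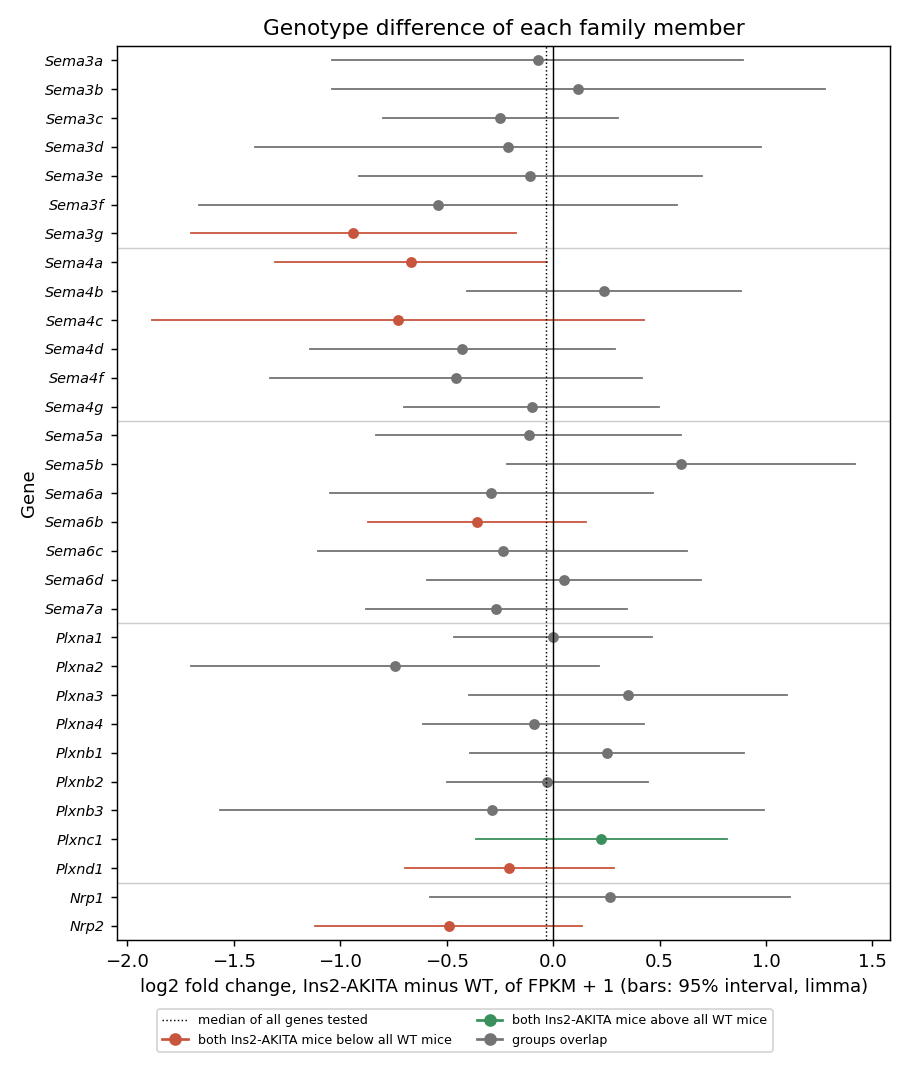
Log2 fold change of FPKM + 1, *Ins2*-AKITA minus WT (horizontal), for each family member (vertical), with bars for the 95% interval from limma (n = 3 and 2 mice). The dotted line is the median of all tested genes at -0.03; points lie left of 0 for 23 of 31 members (53.5% of all genes), and for 7 of 31 (21.1% of all genes) once libraries are scaled to endothelial markers.

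Among the secreted class 3 semaphorins, 6 of 7 had a negative fold change and the median was -0.21, with 1 at an unadjusted p under 0.05. That gene was *Sema3g*, known from arterial endothelium. The gene (ENSMUSG00000021904) lies on NCBIM37 at chr14:32031046-32043536. Its level was 17.5, 16.9 and 11.0 FPKM in WT replicates 1, 2 and 3, and 9.05 and 5.77 FPKM in *Ins2*-AKITA replicates 1 and 2. Both mutant mice were below every WT mouse, although WT replicate 3 was closer to *Ins2*-AKITA replicate 1 than to the other WT mice. The log2 fold change was -0.94 ± 0.32 (SE), with a 95% interval of -1.70 to -0.18, an unadjusted p of 0.0234 and an adjusted p of 0.896 in limma. The exact two-sided permutation test over the 10 splits of the mice gave p = 0.2, and 0.1 is the smallest p that it allows. With another test on the reads of these same mice, the study called *Sema3g* lower in *Ins2*-AKITA mice after correction for multiple tests. The fit here did not call it, and its direction here is not independent evidence.

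The *Sema3g* values rest on few fragments. With 1 annotated transcript, they corresponded to 88, 96 and 135 fragments in the WT mice and to 44 and 32 in the *Ins2*-AKITA mice. The exact 95% Poisson interval of WT replicate 3 was 9.21 to 13.0 FPKM and that of *Ins2*-AKITA replicate 1 was 6.58 to 12.1 FPKM. These intervals, which cover counting error only, overlap. The fold change stayed negative with each mouse left out, between -1.22 and -0.65. The weakest value came without *Ins2*-AKITA replicate 2, at an unadjusted p of 0.149 in limma.

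The promoter of *Sema3g* is shown with those of the neuropilins because *Sema3g* had the smallest p of the family and the neuropilins are the co-receptors of its class. Each line gives the 250 bases before the RefSeq start on GRCm38.p6, 5′ to 3′ on the plus strand, with matches to 2 motifs in capitals. They are the TATA box letters TATAA and the GC box letters GGGCGG, each read on both strands.

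*Sema3g*, chr14:31217623-31217872: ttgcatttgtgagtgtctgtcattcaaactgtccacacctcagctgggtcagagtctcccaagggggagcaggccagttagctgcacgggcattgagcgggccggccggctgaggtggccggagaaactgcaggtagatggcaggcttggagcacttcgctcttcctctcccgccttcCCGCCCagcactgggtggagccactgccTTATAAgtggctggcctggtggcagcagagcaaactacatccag
*Nrp1*, chr8:128358823-128359072: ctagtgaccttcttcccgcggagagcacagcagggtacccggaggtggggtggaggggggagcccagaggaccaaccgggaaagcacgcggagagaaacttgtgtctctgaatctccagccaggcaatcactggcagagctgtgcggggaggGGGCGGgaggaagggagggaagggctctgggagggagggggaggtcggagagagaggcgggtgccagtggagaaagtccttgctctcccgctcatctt
*Nrp2*, chr1:62703067-62703316: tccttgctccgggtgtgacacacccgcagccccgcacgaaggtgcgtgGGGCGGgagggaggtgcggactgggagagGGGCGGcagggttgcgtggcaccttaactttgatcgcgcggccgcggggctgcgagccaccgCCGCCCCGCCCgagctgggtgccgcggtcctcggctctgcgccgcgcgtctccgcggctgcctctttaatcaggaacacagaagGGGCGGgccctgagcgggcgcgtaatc

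The *Sema3g* promoter held 1 GC box match and, on both strands of the same 6 bases, 2 overlapping TATA box matches. The *Nrp2* promoter held 5 GC box matches, of which 2 overlap, with a GC content of 72.4%, and that of *Nrp1* held 1 with a GC content of 64.4%. RefSeq promoters were at hand for 26 of the 31 members, 37 promoters in all. GC box letters were in 73.0% of these and in 32.7% of all 32851 promoters, and TATA box letters in 8.11% and 22.8%. E-box letters CACGTG were in 5.41% of the member promoters against 6.02% of all, and the GATA letters AGATAA in 0% against 9.99%. The median GC content was 64.0% for the family and 52.4% for all promoters. These are counts of letters in a window and say nothing of binding. The 32851 promoters were not limited to tested genes, while all 31 members were tested, so the contrast may not be particular to the family.

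The other class 3 genes overlapped between genotypes. *Sema3c*, which can use either neuropilin, was the most abundant class 3 gene at 23.3, 25.3 and 19.3 FPKM in WT mice, against 21.3 and 16.6 FPKM in the mutants. Its fold change was -0.25 on the log2 scale. *Sema3f*, the classic *Nrp2* ligand, was at 5.95, 4.30 and 2.33 FPKM in WT mice, against 3.36 and 1.67 FPKM in the mutants, with a log2 fold change of -0.54 ± 0.46 (SE). WT replicate 3 lay between the mutant mice, and the fold change was -0.19 without *Ins2*-AKITA replicate 2. *Sema3a*, the axon repellent that binds *Nrp1*, varied from 3.36 to 7.26 FPKM among WT mice and was at 3.55 and 5.59 FPKM in the mutants. *Sema3e*, which binds *Plxnd1* without a neuropilin, ranged from 3.46 to 4.37 FPKM in WT and was at 4.17 and 2.95 FPKM in *Ins2*-AKITA mice. *Sema3b* and *Sema3d* stayed under 4 FPKM in every mouse, with log2 fold changes of 0.12 and -0.21. The mean of *Sema3d* in *Ins2*-AKITA mice, 0.908 FPKM, was under the filter of 1 FPKM, which it passed through the WT mice. Its fold change is also the median of class 3. The WT ranges of *Sema3a*, *Sema3b* and *Sema3e* also overlapped each other, so no order among these low members is given. *Sema3a*, *Sema3c*, *Sema3d* and *Sema3e* lie near each other on chromosome 5, and *Sema3b* and *Sema3f* on chromosome 9.

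Class 4 semaphorins are membrane proteins whose receptors are mainly B-type plexins. Of the 6, 5 had a negative fold change, with a median of -0.44, and their summed level was 96.2, 105 and 79.5 FPKM in WT mice, against 78.5 and 57.0 FPKM in the mutants. *Sema4a*, a class 4 member known from T cells that can also bind *Plxnd1* (NCBIM37 chr3:88239881-88265104), was at 31.8, 44.9 and 37.6 FPKM in WT mice, against 29.0 and 18.8 FPKM in the mutants. Both mutant mice were below all WT mice, with *Ins2*-AKITA replicate 1 just under WT replicate 1. The log2 fold change was -0.67 ± 0.26 (SE), with an unadjusted p of 0.0428 and an adjusted p of 0.896 in limma and an exact permutation p of 0.1, the smallest possible. Without *Ins2*-AKITA replicate 2 it was -0.37.

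*Sema4c*, a ligand of *Plxnb2*, was at 18.4, 7.94 and 5.65 FPKM in WT mice, against 5.63 and 5.04 FPKM in the mutants. The groups did not overlap, but WT replicate 1 stood far above the other 4 mice, and WT replicate 3 and *Ins2*-AKITA replicate 1 were nearly equal. The log2 fold change of -0.73 had a standard error of 0.48, and it was -0.29 without WT replicate 1. *Sema4d*, the ligand of *Plxnb1*, was at 19.7, 26.5 and 16.2 FPKM in WT mice, against 18.3 and 12.1 FPKM in the mutants, and the groups overlapped. *Sema4f* had a log2 fold change of -0.46 and *Sema4g* of -0.10, both with overlapping groups. *Sema4b* was the exception in sign, at 10.3, 10.9 and 7.91 FPKM in WT mice, against 13.3 and 9.96 FPKM in the mutants.

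**Figure D3:**
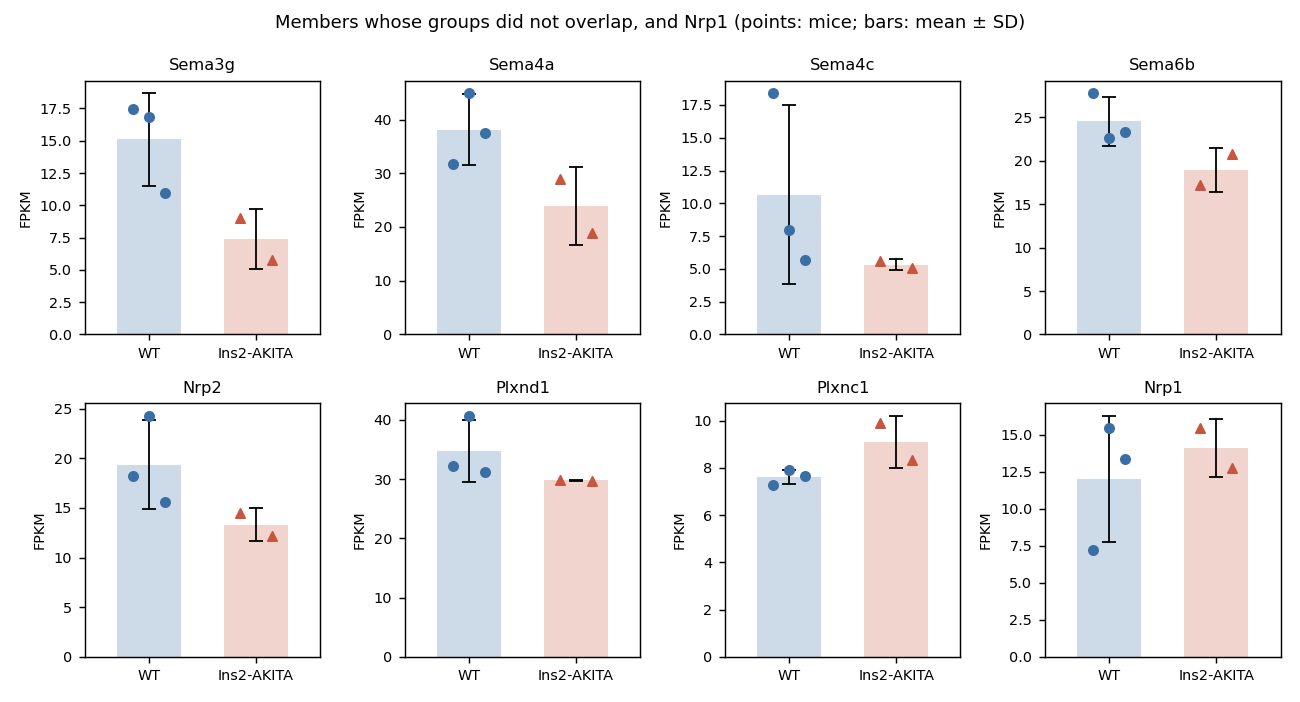
FPKM (vertical, each panel from 0) of the 7 members whose groups did not overlap, and of *Nrp1*, in WT (n = 3) and *Ins2*-AKITA (n = 2) mice, with 1 point per mouse, shaded bars for the group mean and error bars for the SD. *Sema3g* ran from 11.0 to 17.5 FPKM in WT and from 5.77 to 9.05 FPKM in *Ins2*-AKITA mice, while *Nrp1* overlapped between the groups.

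Among the class 5, 6 and 7 semaphorins 5 of 7 fold changes were negative, and the median was -0.24 on the log2 scale. *Sema6b*, a transmembrane ligand of *Plxna4*, was at 27.8, 22.6 and 23.3 FPKM in WT mice, against 17.2 and 20.7 FPKM in the mutants. The groups did not overlap, yet the gap between WT replicate 2 and *Ins2*-AKITA replicate 2 was small, and the log2 fold change was -0.36 ± 0.21 (SE), or -0.23 without *Ins2*-AKITA replicate 1. *Sema7a* was at 48.8, 47.1 and 40.2 FPKM in WT mice, against 47.7 and 29.4 FPKM in the mutants. Here the mutants split, since replicate 1 was at the level of the WT mice and replicate 2 below all of them.

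*Sema5b*, a transmembrane protein with thrombospondin repeats, had the largest positive fold change of the family, 0.60 ± 0.34 (SE) on the log2 scale. Its values were 7.37, 9.89 and 12.5 FPKM in WT mice, against 11.5 and 20.1 FPKM in the mutants, with *Ins2*-AKITA replicate 1 inside the WT range. Without *Ins2*-AKITA replicate 2 the fold change was 0.22. That was below those of *Sema3b* (0.45), *Sema4b* (0.43), *Plxnb3* (0.40), *Nrp1* (0.40), *Plxnc1* (0.34) and *Sema6c* (0.25) without that mouse. Its relative *Sema5a* had equal values of 12.8 FPKM in both mutants, within the WT range of 10.1 to 18.7 FPKM. *Sema6d*, a ligand of *Plxna1*, was at 29.0 and 28.8 FPKM in the mutants, also inside the WT range of 20.2 to 32.7 FPKM. *Sema6a* and *Sema6c* had log2 fold changes of -0.29 and -0.24 with overlapping groups.

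The 9 plexins had a median log2 fold change of -0.03, equal to that of all genes, with 6 negative. The median of the 20 semaphorins was -0.24 with 16 negative, and the difference between ligands and receptors was not tested. The summed level of the plexins was 185, 186 and 168 FPKM in WT mice, against 171 and 170 FPKM in the mutants. *Plxnd1*, the receptor of *Sema3e* in developing vessels, was at 32.1, 40.7 and 31.2 FPKM in WT mice, against 29.9 and 29.7 FPKM in the mutants. The gap between the groups was narrower than the range within WT, and the log2 fold change was -0.20 ± 0.20 (SE), or -0.09 without WT replicate 2. *Plxnc1*, the receptor of *Sema7a*, was the member with the least spread among WT mice, at 7.29, 7.89 and 7.67 FPKM, and reached 9.89 and 8.33 FPKM in the mutants. The log2 fold change was 0.23 ± 0.24 (SE), or 0.11 without *Ins2*-AKITA replicate 1, and the exact permutation p was 0.1. The values rest on 58 to 149 fragments in WT and on 76 and 73 in *Ins2*-AKITA mice.

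*Plxna2*, a receptor of class 3 and class 6 semaphorins, had the widest spread of the abundant plexins at 40.4, 29.4 and 18.0 FPKM in WT mice, against 21.5 and 12.2 FPKM in the mutants. WT replicate 3 lay between the mutants, and the log2 fold change was -0.74 ± 0.40 (SE). It ran from -1.13 without *Ins2*-AKITA replicate 1 to -0.36 without *Ins2*-AKITA replicate 2, and was -0.48 without WT replicate 1. *Plxnb1* was at 33.0, 26.9 and 41.0 FPKM in WT mice, against 33.0 and 47.9 FPKM in the mutants. For this receptor WT replicate 3 and *Ins2*-AKITA replicate 2 were the high libraries, which is the reverse of *Plxna2*. *Plxna1* was the flattest gene of the family, at 23.0, 20.2 and 22.7 FPKM in WT and 21.9 FPKM in each mutant, with a 95% interval of the log2 fold change of -0.46 to 0.46. *Plxna4* (12.5 to 14.6 FPKM in WT, 13.2 and 12.3 FPKM in *Ins2*-AKITA) and *Plxnb2* (25.3 to 30.8 FPKM, 27.5 and 25.9 FPKM) also differed little between mice. *Plxna3* and *Plxnb3* had log2 fold changes of 0.35 and -0.29 with overlapping groups. Exons of *Plxna1*, *Plxna4* and *Plxnb1* overlap those of another gene on the opposite strand, and those of *Nrp1* a microRNA gene on the same strand. Those overlapping genes had at most 2.93 FPKM in any mouse.

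The neuropilins had fold changes of opposite sign, neither beyond the spread between mice. *Nrp2*, the co-receptor for *Sema3f* and VEGF-C (NCBIM37 chr1:62749859-62865269), was at 18.2, 24.3 and 15.6 FPKM in WT mice, against 14.5 and 12.1 FPKM in the mutants. Both mutants were below all WT mice, with WT replicate 3 close to *Ins2*-AKITA replicate 1. The log2 fold change was -0.49 ± 0.26 (SE), and limma gave an unadjusted p of 0.105 and an adjusted p of 0.896. Without WT replicate 2 the fold change was -0.32. *Nrp1*, the co-receptor for *Sema3a* and VEGF-A, was at 7.23, 15.5 and 13.3 FPKM in WT mice, against 15.5 and 12.7 FPKM in the mutants. WT replicate 1 stood apart below the rest with 48 fragments, and the log2 fold change of 0.27 ± 0.35 (SE) became -0.03 without it. The ratio of *Nrp2* to *Nrp1* FPKM was 2.52, 1.57 and 1.17 in WT mice, against 0.939 and 0.953 in the mutants. The ratio was above 1 in each WT mouse and below 1 in each mutant, with an exact permutation p of 0.2.

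Of 40 partner genes of the family, 39 were tested and 0 passed the adjusted threshold. At an unadjusted p under 0.05 in limma the count was also 0. Fold changes were positive for 24 and negative for 15, with a median of 0.04, and the groups did not overlap for 4, all with higher *Ins2*-AKITA values, 10.3% against 9.24% of all genes. *Met*, a receptor tyrosine kinase that pairs with B-type plexins, was at 1.22, 0.510 and 0.950 FPKM in WT mice, against 3.98 and 2.30 FPKM in the mutants, giving 1.12 ± 0.48 (SE) as log2 fold change. Its mean WT level of 0.893 FPKM was under the filter of 1 FPKM, which it passed through the mutant mice. The cofilin phosphatase *Ssh1* and the adhesion protein *Nrcam* had log2 fold changes of 0.57 and 0.36. In the other direction, *Vegfc*, a growth factor that binds *Nrp2*, was at 5.17, 22.2 and 12.4 FPKM in WT mice, against 3.21 and 5.72 FPKM in the mutants. Its log2 fold change of -1.22 ± 0.57 (SE) came with overlapping groups and was -0.77 without WT replicate 2. *Mical3* (summed over 2 identifiers), of a family of oxidases acting on the cytoskeleton, and *Dpysl5*, a collapsin response mediator, had log2 fold changes of -0.54 and -0.38. *Kdr*, the main VEGF-A receptor, and *Vegfa* itself were at log2 fold changes of 0.04 and 0.22 with overlapping groups. *Timd2* was listed at 0 in every mouse.

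Endothelial markers were found in every sample, with *Pecam1*, which encodes the capture protein, at 65.8 to 92.8 FPKM in WT mice, against 63.1 and 58.3 FPKM in the mutants. The samples were not endothelium alone. Oligodendrocyte markers summed to 1926 to 2613 FPKM in WT mice, against 2096 and 2302 FPKM in the mutants. Neuronal markers summed to 744 to 822 FPKM in WT mice, against 741 and 890 FPKM in the mutants. Marker levels differed between the genotypes in the same samples. All 10 endothelial markers had negative fold changes with a median of -0.43. Both mutant values lay below all WT values for 4 of 10 endothelial and 4 of 6 smooth muscle markers, against 10.3% of all genes. They lay above all WT values for 4 of 7 astrocyte markers, against 9.24% of all genes. The summed level of the endothelial markers was 510 to 872 FPKM in WT and 433 to 523 FPKM in *Ins2*-AKITA mice. All 7 astrocyte markers had positive fold changes with a median of 0.52, and summed to 2118 to 2927 FPKM in WT and 3338 to 3933 FPKM in *Ins2*-AKITA mice. No endothelial, smooth muscle or astrocyte marker was at 0 in any mouse, while *Hbb-b2* (erythroid) and *Lum* (fibroblast) were at 0 in *Ins2*-AKITA replicate 2. None of the markers tested passed the adjusted threshold in limma. Negative fold changes were also found for 8 of 10 arterial, 5 of 6 venous, 6 of 8 pericyte, 6 of 6 smooth muscle and 5 of 5 erythroid markers, with medians of -0.25, -0.22, -0.29, -0.60 and -1.09. They were found for 1 of 6 microglial, 3 of 6 oligodendrocyte, 3 of 7 neuronal and 3 of 5 tested fibroblast markers, with medians of 0.16, -0.03, 0.21 and -0.18. The part of this mixture in the differences of the family was not tested.

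When each library was divided by the geometric mean of its endothelial markers, all genes shifted upward together. The median over all genes moved from -0.03 to 0.38, and that over the members from -0.20 to 0.26. Relative to all genes, the median of the members was -0.17 before this scaling and -0.13 after it. With 1 factor per library, values relative to all genes stay nearly the same by construction, so they do not test the scaling. *Sema3g* and *Nrp2* were then the members with both mutant values below all WT values, against 2.44% of all genes, and 9 members were above, against 26.7%. *Sema3g* per endothelial marker level was 0.332, 0.239 and 0.245 in WT mice, against 0.210 and 0.158 in the mutants, with an exact permutation p of 0.1. Both mutants remained below the WT mice, and the log2 fold change under this scaling was -0.51. Relative to all genes it was -0.90 with and without the scaling, which follows from the scaling itself. *Nrp2* per endothelial marker level was 0.346, 0.344 and 0.347 in WT mice, against 0.336 and 0.333 in the mutants. The groups did not overlap, but the log2 fold change of *Nrp2* was reduced to -0.04. *Sema4a*, *Sema4c*, *Sema6b* and *Plxnd1* overlapped between genotypes on this scale. *Plxnc1* was at 0.138, 0.112 and 0.171 in WT and 0.229 in each mutant.

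**Figure D4:**
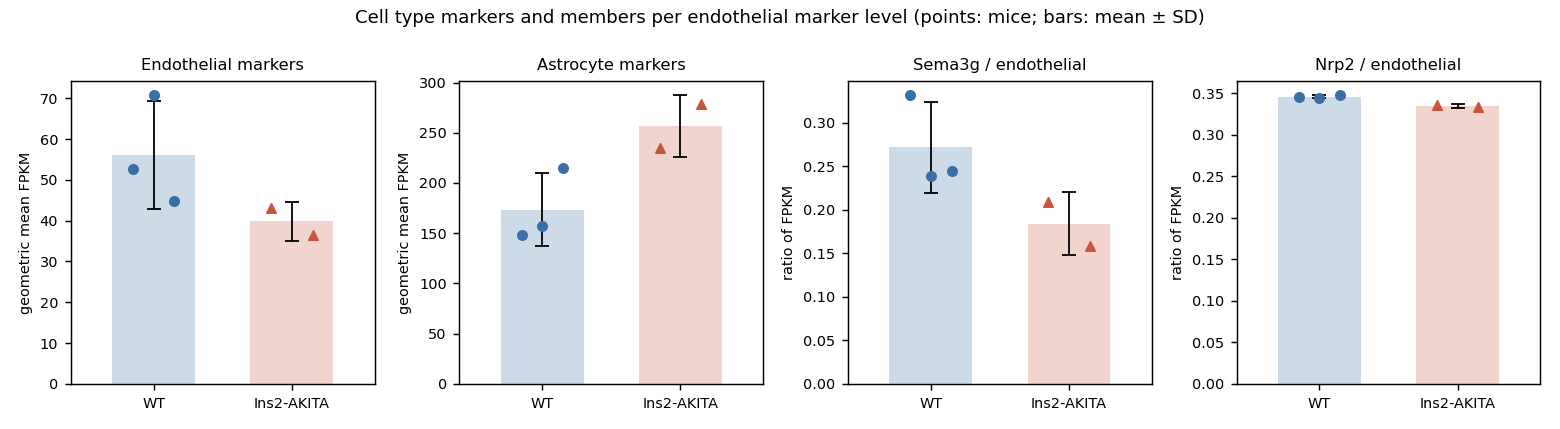
Levels by mouse in WT (n = 3) and *Ins2*-AKITA (n = 2) mice of the endothelial and astrocyte marker geometric means in FPKM, and of the ratios of *Sema3g* and *Nrp2* to the endothelial mean (no unit), with 1 point per mouse, shaded bars for the group mean and error bars for the SD. *Sema3g* per endothelial marker level is 0.239 to 0.332 in WT and 0.158 to 0.210 in *Ins2*-AKITA mice.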

How the data were processed

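RNA sequencing values of 5 mice were used, 3 WT and 2 *Ins2*-AKITA, grouped by the genotype in the labels. The authors depleted ribosomal RNA, made stranded libraries, and per their methods mapped reads to NCBIM37 with TopHat2 2.0.4, removed duplicates with Picard 1.92 and tested with Cufflinks 2.2.1. They deposited 1 FPKM value per Ensembl gene and mouse. The program behind the single-mouse values is not given in the sources used here. Removing duplicates can lower high values.

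Of 37982 identifiers, 37197 matched GENCODE vM1, and rows with a shared symbol were summed. Genes with a mean FPKM of at least 1 were tested two-sided with limma 3.58.1 in R 4.3.3 (lmFit, eBayes with trend) on log2(FPKM + 1), with Benjamini-Hochberg adjustment at 0.05. The pseudocount of 1 understates the change of low genes. The fit was run on simulated data as a check that it returned planted changes, which were larger than those of any member. How often it would miss changes of the size seen in the members was not tested. Exact permutation tests used the 10 splits of the mice (Python 3.11.15, scipy 1.17.1). The labels call the samples separate mice only by number, so p-values measure the spread between these samples.

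Fragments were estimated from low FPKM values of genes with 1 transcript, of which 97.5% to 97.8% were whole multiples of 1 fragment within 0.05. Values of the 31 members, the 40 partners and the marker lists are printed from the fit over all genes. Members and lists were chosen with earlier results of these data known. All members are named, with the 3 partners of smallest p in each direction, *Kdr* and *Vegfa*. The 13 alternatives were another pseudocount (0.1), no filter or one at 5 FPKM, median-ratio, quantile and endothelial marker scaling, a constant prior variance, a replicate block and each mouse left out. Promoters are from RefSeq on GRCm38.p6, gene positions from NCBIM37.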

Additional observations from a re-analysis of the deposited data

How the results depend on the processing

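Leaving a mouse out leaves 1 *Ins2*-AKITA mouse in some fits, which is then assumed to vary like the WT mice. No member or partner passed the adjusted threshold under any of the 13 alternatives. Of the fold changes of single genes, 456 values kept their direction and side of the threshold and 45 changed sign. Over all genes, 1 was called higher with a constant prior variance, and 2 lower with no filter, the filter at 5 FPKM or the constant prior variance. At an unadjusted p under 0.05 in limma, 1 member was lower with quantile normalization, where 405 of 16286 genes were. With the constant prior it was also 1, where 474 of 16286 genes were lower. With endothelial marker scaling 0 members were lower and 1 higher, against 161 and 973 of 16265 genes. There 7 members had negative fold changes (21.1% of all genes). On that scale 2 lay below all WT values (2.44% of all genes) and 9 above (26.7%), counts added after seeing the data. The member median was then 0.26. Partners at that p numbered 1 higher with no filter, quantile, endothelial scaling or constant prior. All genes higher then numbered 326 of 21557, 280 of 16286, 973 of 16265 and 234 of 16286, in that order. With the replicate block 1 partner was lower, where 809 of 16286 genes were. With that block *Sema3g* was at -1.14 (adjusted p 0.603 in limma) and *Sema3a*, *Sema3b* and *Plxna1* changed sign to 0.19, -0.020 and 0.024. The labels name no pairs, so the numbers were not taken to pair the mice. Deviations of same-numbered mice correlated at 0.0512 and -0.0343 over genes. With 2 mutant mice these deviations mirror each other, so the correlations cannot decide on pairing. The cause of the other sign changes was not tested.

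With endothelial scaling, *Sema3a* was at 0.31, *Sema3c* 0.20, *Sema3d* 0.039, *Sema3e* 0.26, *Sema4d* 0.022, *Sema4g* 0.32, *Sema5a* 0.33, *Sema6a* 0.15, *Sema6b* 0.094, *Sema6c* 0.19, *Sema7a* 0.20, *Plxna1* 0.45, *Plxna4* 0.35, *Plxnb2* 0.43, *Plxnb3* 0.096, *Plxnd1* 0.26 and *Dpysl5* 0.067. With quantile normalization *Sema3a* was at 0.032, *Sema3e* 0.018 and *Plxna1* 0.045, and with median-ratio scaling *Plxna1* at 0.026. With 1 WT mouse left out, genes called ran from 0 to 2 higher and from 3 to 10 lower (10 without WT replicate 3). Without that mouse 2 members were lower at an unadjusted p under 0.05 in limma, where 936 of 16376 genes were. Of the partners, 2 were higher and 1 lower, where 490 and 936 genes were. Without WT replicate 1, 1 partner was lower, where 342 of 16064 genes were. With any 1 mouse left out, the member median ran from -0.27 to -0.045. Fold changes ran from -0.34 to 0.19 for *Sema3a*, -0.21 to 0.45 for *Sema3b*, -0.30 to 0.089 for *Sema3e*, -0.33 to 0.080 for *Sema5a*, -0.58 to 0.00061 for *Sema6a*, -0.72 to 0.25 for *Sema6c*, -0.17 to 0.16 for *Sema6d*, -0.61 to 0.074 for *Sema7a*, -0.057 to 0.032 for *Plxna1*, -0.0088 to 0.52 for *Plxnb1*, -0.078 to 0.061 for *Plxnb2*, -0.97 to 0.40 for *Plxnb3*, -0.032 to 0.47 for *Nrp1* and -0.32 to 0.42 for *Kdr*.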
